A study of Mus musculus with 26 samples.

Results

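Drug efflux transporters of the ATP-binding cassette family were followed across 26 arrays of a mouse Group3 medulloblastoma model. They were chosen by gene symbol as Abcb1a, Abcb1b, Abcg2, Abcc1, Abcc2, Abcc3, Abcc4, Abcc5 and Abcc10. Every probe set annotated to exactly one of these symbols was taken, which gave 18 probe sets for the 9 genes, of 45037 probe sets and 17097 named genes in all. Abcc5 had 7 probe sets, Abcb1a, Abcb1b and Abcc1 had 2 each, and the other five had 1. No filter on low values was applied to them, so all 18 entered every test. A gene is led here by the probe set with the highest mean over the 26 arrays.

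The study asked about pemetrexed and gemcitabine given together against Group3 medulloblastoma, a cerebellar tumor of childhood. Group3 neurospheres, which are floating cultures labelled as medulloblastoma cells, and Group3 tumors carried the genotype Trp53-/-, Cdkn2c-/- with Myc. Trp53 Cdkn2c neurospheres carried the same 2 deletions without Myc and were labelled as granule neural progenitors, the precursors of cerebellar granule neurons. The strain was C57BL/6 throughout, and the design text places the neurospheres without Myc at P7. Titles carried the code dka or mmm, and every comparison stayed within a code, apart from tests of whether a tumor over neurosphere difference differs between codes. Under dka there were 3 secondary tumors, 3 untreated tumors, 3 Group3 neurospheres and 3 Trp53 Cdkn2c neurospheres. Under mmm there were 3 tumors given pemetrexed plus gemcitabine, 3 given gemcitabine, 2 given pemetrexed, 2 untreated tumors and 4 Group3 neurospheres. Pemetrexed is an antifolate and gemcitabine a nucleoside analogue. The labels give no dose, time or host, and do not say what makes a tumor secondary or which arrays came from separate animals or cultures. P-values therefore measure the spread between these arrays, which may be technical.

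Values are log2 RMA intensities, and array medians lay between 4.65 and 4.82. Arrays titled mmm had a wider range of values than dka arrays, except mmm Group3 neurosphere replicate 4, whose range of 2.64 to 13.7 was like that of dka. The mean of the 3 dka Group3 neurospheres and the mean of mmm Group3 neurosphere replicates 1 to 3 lay close together (SD of the difference over probe sets 0.132), whereas for pairs of those arrays within a code that SD was 0.452 to 0.911. Means of 3 arrays vary less than single arrays, so these SDs are not like for like. Tumor over neurosphere results in mmm are given with and without replicate 4. The sources used here do not say whether values were adjusted between the codes before deposit, and the part of any such adjustment in differences between codes and in the spread of mmm arrays was not tested. Tumor samples were bulk RNA, in which fewer cells of a type and less RNA per cell cannot be told apart. A level near or below the array median was not read as presence or absence, since no detection call was used.

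ABC transporters use ATP to move substrates out across a membrane. P-glycoprotein, encoded in rodents by the neighbouring genes Abcb1a and Abcb1b, and the breast cancer resistance protein Abcg2 sit on the luminal face of brain capillaries, where they return many drugs to the blood. The Abcc proteins carry organic anions, among them glutathione and glucuronide conjugates. Abcc4 and Abcc5 also move cyclic nucleotides and nucleotide analogues. Tumor cells can express the same pumps, so a transcript in bulk tumor may come from vessels, from tumor cells or from both, while neurospheres grow without a blood supply.

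Upstream sequence is shown for Abcb1a and Abcb1b, neighbours on chromosome 5 whose leading probe sets had different levels in neurospheres. The second Abcb1b probe set averaged 3.57 in Group3 neurospheres of either code, and leading Abcb1a 3.47 in dka and 3.46 in mmm. Sequence is also shown for Abcc4, which had the largest difference between neurosphere genotypes among the members. In GRCm38.p6 Abcb1a spans chr5:8567091-8748575, Abcb1b chr5:8798147-8866314 and Abcc4 chr14:118482692-118707856. RefSeq promoter entries of that build were found for 7 of the 9 genes. The 250 bases before the start were searched on both strands for 4 motifs, and matches are in capitals. The E-box searched, which MYC and its relatives can bind, was CACGTG. The CCAAT box was searched by those letters, the GC box as GGGCGG and the TATA box as TATAAA. The windows are chr5:8566841-8567090 on the plus strand for Abcb1a, chr5:8797897-8798146 on the plus strand for Abcb1b, and chr14:118706220-118706469 on the minus strand for the first of 2 starts of Abcc4, all written 5′ to 3′.
Abcb1a: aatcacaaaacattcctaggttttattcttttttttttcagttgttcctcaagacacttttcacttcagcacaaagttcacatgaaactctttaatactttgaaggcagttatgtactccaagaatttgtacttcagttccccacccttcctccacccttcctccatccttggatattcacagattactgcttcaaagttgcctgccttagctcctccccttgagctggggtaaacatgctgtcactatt
Abcb1b: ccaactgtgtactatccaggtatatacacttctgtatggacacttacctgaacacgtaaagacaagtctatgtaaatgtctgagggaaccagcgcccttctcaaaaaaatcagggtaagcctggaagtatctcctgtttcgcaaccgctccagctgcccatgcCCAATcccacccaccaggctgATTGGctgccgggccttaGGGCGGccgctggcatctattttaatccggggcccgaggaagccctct
Abcc4: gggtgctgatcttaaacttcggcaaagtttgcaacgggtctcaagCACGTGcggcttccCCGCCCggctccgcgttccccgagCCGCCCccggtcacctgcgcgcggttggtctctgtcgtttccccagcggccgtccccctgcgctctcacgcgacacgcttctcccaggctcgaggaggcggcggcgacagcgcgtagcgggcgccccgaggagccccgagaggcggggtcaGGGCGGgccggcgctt
The Abcb1a window held none of the 4 motifs. The Abcb1b window held 2 CCAAT boxes and 1 GC box. The Abcc4 window held 1 E-box and 3 GC boxes, and the window of its second start held none of the 4. The printed Abcc4 window lies inside the gene span given above, so it is upstream of that start and not of the whole span. No matches overlapped in the printed windows. Of 32851 promoters of the same length, 6.02% held CACGTG, 33.8% CCAAT, 32.7% GGGCGG and 12.4% TATAAA, so a match is a description of these letters and not a binding site.

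Neurosphere levels separated the genes. A probe set was called above the array median in neurospheres if it lay at least 1 log2 unit above it on each of the 7 Group3 neurosphere arrays, and near or below it if it lay under that line on each of them. Abcg2, Abcc4, and the leading probe sets of Abcb1b, Abcc1 and Abcc5 were above. Abcb1a, Abcc2 and Abcc3 were near or below. Abcc10, a transporter of taxanes and other lipophilic drugs, lay 0.53 to 1.99 above the median and was mixed. With the median itself as the line, Abcc10 also counted as above. The second probe set of Abcb1b and the 3 dimmest of Abcc5 were near or below, so the class holds for a probe set and not for every reading of its gene. Abcb1a lay -1.51 to -1.0 from the median on the Group3 neurospheres and Abcc3 -1.37 to -0.96. Abcc4 lay 3.44 to 4.34 above it, Abcg2 2.98 to 4.39 and Abcc1 3.48 to 4.16. The classes use the neurosphere arrays that also enter the tumor comparisons, so no test was made between classes.

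**Figure D1:**
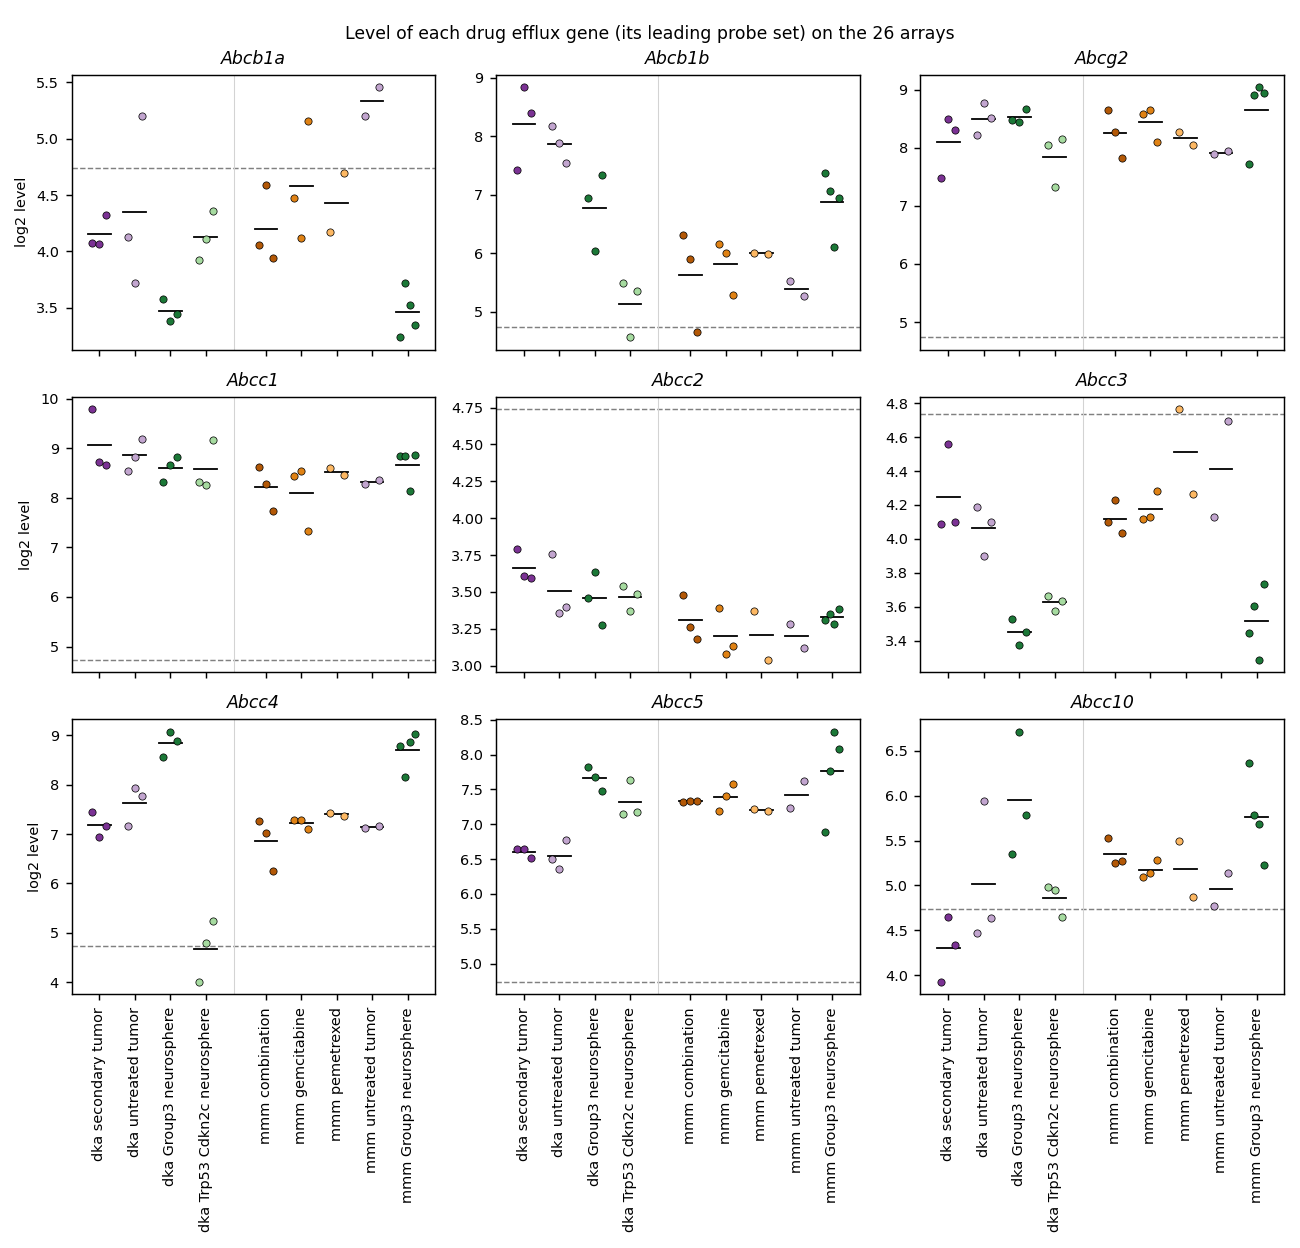
Log2 level (vertical axis) of the leading probe set of each gene on each array, by title code and group (horizontal axis); short lines are group means and the dashed line is the mean array median. Abcb1a, Abcc2 and Abcc3 lay below the dashed line in all neurospheres, and Abcc4 was high in Group3 neurospheres and between 4.01 and 5.25 in Trp53 Cdkn2c neurospheres.

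Group3 neurospheres were set against neurospheres of the same deletions without Myc. Abcc4, Abcb1b and Abcc10 were higher by their leading probe sets, and 1 further probe set of Abcc5 rose, so 4 of 18 probe sets rose and 0 fell (22.2%). Leaving out any one array left 1 to 3 called, and fitting dka arrays alone left 2. Over all probe sets, 20.1% were called, 9.77% higher and 10.4% lower. The members' median difference was 0.05, against 0.04 for all probe sets. Arrays of the 2 groups did not overlap for 7 of the 18, against 38.5% of all probe sets. The groups also differed in granule lineage markers, which averaged 4.94 to 5.27 in Group3 and 9.96 to 10.3 in Trp53 Cdkn2c neurospheres. All 5 measured were lower in Group3. Myc and cell type cannot be told apart here, and their part in the member differences was not tested.

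Abcc4 had the largest difference of the members. It read 8.56, 9.07 and 8.89 in Group3 neurospheres, against 4.01, 4.79 and 5.25 in Trp53 Cdkn2c neurospheres. The difference was 4.16 (SE 0.29, limma adjusted p = 7.762e-09), or 17.8-fold. Trp53 Cdkn2c neurospheres lay around the array median and the groups did not overlap. The call held without each of the 6 arrays in turn, with differences of 3.82 to 4.44.

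Abcb1b, the rodent P-glycoprotein gene also expressed outside capillaries, read 6.94, 6.04 and 7.34 in Group3 neurospheres, against 5.49, 4.56 and 5.36 in Trp53 Cdkn2c neurospheres. It rose by 1.64 (SE 0.44, limma adjusted p = 0.0110), or 3.11-fold. Without Group3 replicate 3 or without Trp53 Cdkn2c replicate 2 the adjusted p was 0.0660 and 0.0657. Its second probe set, 1446701_PM_at, averaged 3.57 in Group3 and 3.38 in Trp53 Cdkn2c neurospheres and differed by 0.19 (SE 0.15, limma adjusted p = 0.448).

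Abcc10 read 5.35, 6.72 and 5.78 in Group3 neurospheres, against 4.98, 4.95 and 4.65 in Trp53 Cdkn2c neurospheres. The difference of 1.09 (SE 0.36, limma adjusted p = 0.0356) was 2.13-fold, with no overlap. The call was lost on leaving out any one of 5 of the 6 arrays, with an adjusted p up to 0.208. It was also lost when the fit held only the dka arrays (adjusted p = 0.0958). Group3 replicate 2 was the high array, and without it the difference was 0.71.

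The Abcc5 probe set that rose, 1438056_PM_x_at, averaged 5.85 in Group3 and 5.33 in Trp53 Cdkn2c neurospheres (difference 0.52, SE 0.17, limma adjusted p = 0.0315). Its call was lost on leaving out any one of 5 of the 6 arrays (adjusted p up to 0.221), with dka arrays alone and with a mean-variance trend. Leading Abcc5 differed by 0.34 (SE 0.25, adjusted p = 0.391).

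Abcg2 and Abcc1 are pumps with broad drug ranges. Abcg2 averaged 8.53 ± 0.12 in Group3 neurospheres and 7.84 ± 0.45 in Trp53 Cdkn2c neurospheres (SD, n = 3 each). The arrays did not overlap, but the difference of 0.69 (95% interval 0.02 to 1.36) was not called (limma adjusted p = 0.150) except with array weights (0.75, adjusted p = 0.0319). Abcc1 averaged 8.60 ± 0.26 in Group3 neurospheres and 8.58 ± 0.51 in Trp53 Cdkn2c neurospheres, a difference of 0.02 (interval -0.70 to 0.75).

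Abcb1a had a negative difference that was not called. It read 3.58, 3.39 and 3.44 in Group3 neurospheres, against 3.93, 4.11 and 4.36 in Trp53 Cdkn2c neurospheres (difference -0.66, SE 0.30, limma adjusted p = 0.133). The endothelial marker list averaged 4.23 to 4.38 in Group3 neurospheres and 4.92 to 5.39 in Trp53 Cdkn2c neurospheres, with 4 of 17 markers lower in Group3, among them Cldn5 (-2.71, limma adjusted p = 0.000332), a tight junction gene of brain capillaries. Microglia and macrophage markers averaged 3.81 to 3.97 in Group3 and 5.78 to 6.21 in Trp53 Cdkn2c neurospheres. The 2 measured red blood cell markers averaged 4.16 to 4.40 in Group3 and 6.28 to 7.12 in Trp53 Cdkn2c neurospheres. The part of these cells in the Abcb1a difference was not tested.

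Untreated tumors were set against Group3 neurospheres to see which pumps differ between the tumor in tissue and the same genotype in culture. Under both codes Abcc3 rose and Abcc4 fell. Abcb1a rose under mmm. Leading Abcc5 fell under dka, and Abcb1b fell under mmm. In dka 1 of 18 probe sets rose and 4 fell (27.8%). Over all probe sets 13.8% were called in dka, 6.53% higher and 7.28% lower. In mmm 3 rose and 2 fell (27.8%), against 17.5% of all, 8.1% higher and 9.35% lower. Without mmm neurosphere replicate 4, 4 were called. Leaving out any one array gave 2 to 7 calls in dka and 3 to 6 in mmm. The 3 called in mmm that rose were both probe sets of Abcb1a and the Abcc3 probe set. Median differences of the members were 0.04 in dka and -0.13 in mmm, against 0.01 and -0.06 over all probe sets. Tumor and neurosphere arrays did not overlap for 7 of 18 in dka and 7 of 18 in mmm, against 30.8% and 40.4% of all.

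**Figure D2:**
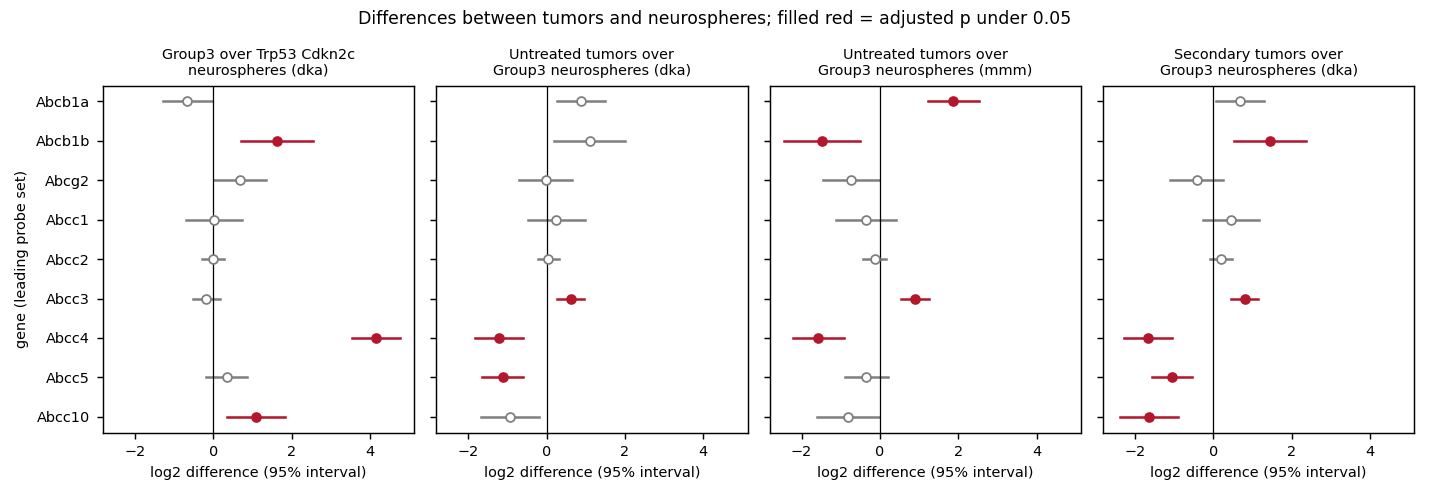
Log2 difference (horizontal axis) with its 95% interval for the leading probe set of each gene (vertical axis) in 4 comparisons. Filled red points passed an adjusted p of 0.05; Abcc4 was to the right of 0 between neurosphere genotypes and to the left of 0 in each tumor comparison.

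Of the genes near or below the array median in neurospheres, Abcb1a, the main P-glycoprotein gene of brain capillary endothelium, read 5.20 and 5.46 in untreated mmm tumors. The mmm Group3 neurospheres read 3.24, 3.72, 3.53 and 3.35. Both tumors lay above all 4 neurospheres. The difference was 1.87 (SE 0.31, limma adjusted p = 0.000435), or 3.66-fold, and 1.84 without neurosphere replicate 4 (adjusted p = 0.00145). The second probe set rose by 2.11 (SE 0.32, limma adjusted p = 0.000189), or 2.03 without replicate 4.

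In dka the same gene read 4.13, 3.72 and 5.20 in untreated tumors and 3.58, 3.39 and 3.44 in Group3 neurospheres. Replicate 3 stood well above the other tumors, and the groups did not overlap. The difference of 0.88 (SE 0.30) missed the threshold (limma adjusted p = 0.0535), and was 0.45 without replicate 3 (adjusted p = 0.301). Without replicate 2 it was called at 1.20 (adjusted p = 0.0133), and with array weights at 0.90 (adjusted p = 0.0478). The second probe set differed by 0.80 (SE 0.30, limma adjusted p = 0.0888). The difference between codes was 0.99 (SE 0.43, limma adjusted p = 0.173) and 1.30 (SE 0.44, adjusted p = 0.0812) for the 2 probe sets, not called, and 0.96 and 1.22 without mmm neurosphere replicate 4. The second was called with array weights (adjusted p = 0.0464). Without dka tumor replicate 3 both were called, at 1.42 (adjusted p = 0.0280) and 1.80 (adjusted p = 0.00612).

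Markers of endothelial and of several other cells were also higher in these tumors than in neurospheres. Over all probe sets 6.53% were called higher in dka and 8.1% in mmm. Of 17 endothelial markers 13 rose in dka and 12 in mmm, and 0 fell. Of 7 neuron markers 4 rose and 1 fell in dka and 6 rose in mmm, and of 6 oligodendrocyte markers 1 rose in dka and 5 in mmm. Of 15 microglia and macrophage markers 9 rose in dka and 15 in mmm, and of 10 pericyte and fibroblast markers 7 rose in dka and 4 in mmm. Of 8 astrocyte markers 0 rose and 2 fell in dka, and 3 rose and 1 fell in mmm. The endothelial list averaged 5.33 to 6.61 in dka tumors and 4.23 to 4.38 in dka Group3 neurospheres. In mmm the endothelial list averaged 5.87 to 6.11 in tumors and 4.28 to 4.34 in neurospheres. Cldn5 rose by 2.57 (SE 0.47) in dka and 3.15 (SE 0.50) in mmm, and Slco1c1, a thyroid hormone carrier of capillaries, by 2.0 and 4.31. Neuron markers averaged 9.93 to 10.2 in mmm tumors and 4.01 to 6.75 in mmm neurospheres, and oligodendrocyte markers 7.30 to 8.97 against 3.98 to 4.87. In dka tumor replicate 3, the array with the high Abcb1a, oligodendrocyte markers averaged 8.71 and endothelial markers 6.61, against 5.68 and 5.57 in replicate 1 and 4.41 and 5.33 in replicate 2. The part of each cell type in the Abcb1a level was not tested.

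**Figure D3:**
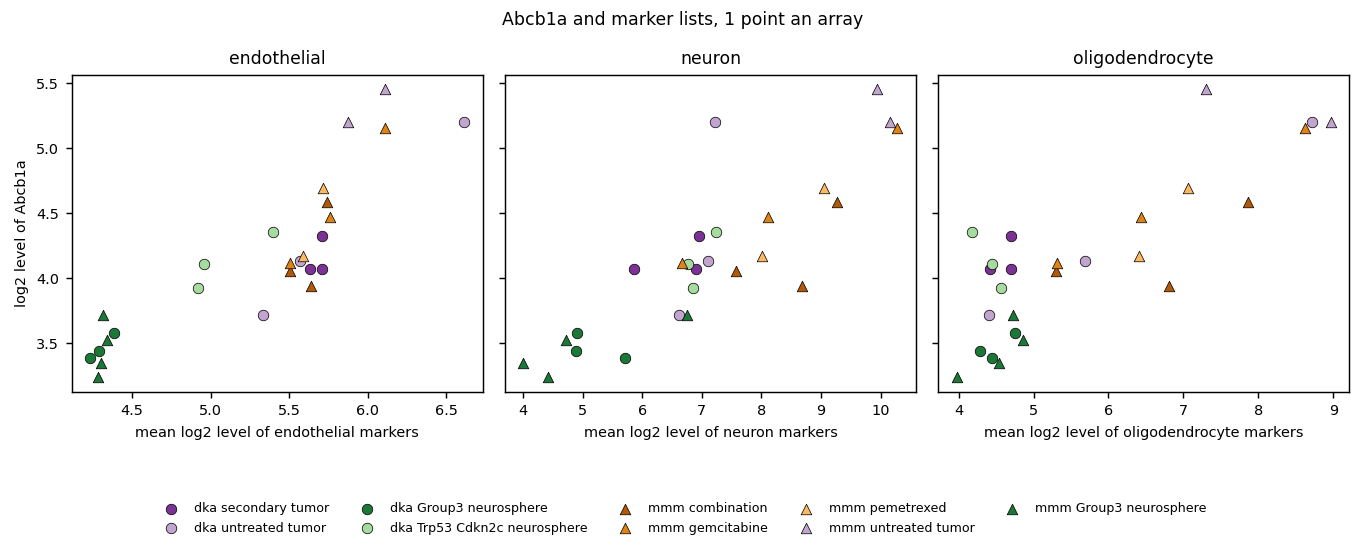
Log2 level of Abcb1a (vertical axis) on each of the 26 arrays against the mean log2 level of the endothelial, neuron and oligodendrocyte marker lists (horizontal axes); circles are dka and triangles mmm arrays. Group3 neurospheres lie between 3.24 and 3.72 on the vertical axis, and the arrays highest in Abcb1a are untreated mmm tumors, 1 gemcitabine tumor and dka untreated tumor replicate 3.

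Abcc3, which exports bile salts and glucuronides, read 4.19, 3.90 and 4.10 in dka untreated tumors, against 3.53, 3.37 and 3.45 in Group3 neurospheres. It rose by 0.61 (SE 0.16, limma adjusted p = 0.0148). The call was lost without tumor replicate 1, without neurosphere replicate 2 and with array weights (adjusted p up to 0.0650). In mmm it read 4.13 and 4.69 in untreated tumors and 3.44, 3.60, 3.29 and 3.73 in Group3 neurospheres. The rise was 0.89 (SE 0.17, limma adjusted p = 0.00134), 0.97 without neurosphere replicate 4 and 0.61 without tumor replicate 2 (adjusted p = 0.0805). Groups did not overlap under either code, but each array, tumors included, was below its array median. Abcc2, the canalicular pump of liver, stayed between 3.04 and 3.79 on all 26 arrays and was called in none of the 12 comparisons.

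Among the genes above the array median in neurospheres, Abcc4 was lower in tumors under both codes. It read 7.15, 7.94 and 7.78 in dka untreated tumors, against 8.56, 9.07 and 8.89 in Group3 neurospheres. The log2 difference was -1.22 (SE 0.29, limma adjusted p = 0.00815), with no overlap. Without tumor replicate 1 the change was -0.98 (adjusted p = 0.0551). In mmm it read 7.12 and 7.15 in untreated tumors, against 8.79, 8.16, 8.87 and 9.02 in Group3 neurospheres. The difference of -1.57 (SE 0.31, limma adjusted p = 0.00175) was -1.46 without neurosphere replicate 4 and stayed called without each of the 6 arrays. In order of level, dka Group3 neurospheres came first, then untreated and secondary tumors, which overlapped, then Trp53 Cdkn2c neurospheres.

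The tumor over neurosphere difference of Abcb1b had opposite signs under the codes. In dka untreated tumors it read 8.18, 7.88 and 7.55, against 6.94, 6.04 and 7.34 in Group3 neurospheres. The groups did not overlap, and the difference of 1.10 (SE 0.44) was not called (limma adjusted p = 0.110). In mmm untreated tumors it read 5.52 and 5.27, against 7.37, 7.07, 6.10 and 6.94 in Group3 neurospheres. The log2 difference was -1.48 (SE 0.47, limma adjusted p = 0.0329), also with no overlap, but the call was lost on leaving out any one of 5 of the 6 arrays. Without neurosphere replicate 4 the change was -1.46 (adjusted p = 0.0621). The difference between codes was -2.58 (SE 0.64, limma adjusted p = 0.0231). In that test 1 member probe set was called lower and 1 of Abcc5 higher. Over all probe sets 6.35% were called, 3.36% lower and 2.99% higher. It lost its call without dka neurosphere replicate 2 (-2.21, adjusted p = 0.0618) and without mmm tumor replicate 1 (-2.70, adjusted p = 0.0807) or 2 (-2.45, adjusted p = 0.109). Without mmm neurosphere replicate 4 it was -2.55 (adjusted p = 0.0406). Neuron markers averaged 9.93 to 10.2 in mmm and 6.61 to 7.22 in dka untreated tumors. Microglia and macrophage markers averaged 7.83 to 8.0 in mmm and 5.94 to 6.42 in dka untreated tumors, and astrocyte markers 8.88 to 9.39 in mmm and 4.93 to 7.30 in dka. The tumor over neurosphere difference was called larger in mmm for 6 of 15 microglia and macrophage, 2 of 7 neuron and 0 of 8 astrocyte markers. The part of these cells in the Abcb1b difference was not tested.

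Abcc5 has 7 probe sets, and they disagreed. The leading one, 1435684_PM_at, read 6.50, 6.36 and 6.78 in dka untreated tumors, against 7.83, 7.68 and 7.48 in Group3 neurospheres. The log2 difference was -1.12 (SE 0.25, limma adjusted p = 0.00417), called whichever of the 6 arrays was left out. In dka 1438056_PM_x_at fell by 0.76 (SE 0.17, adjusted p = 0.00427) and 1435685_PM_x_at by 0.69 (SE 0.23, adjusted p = 0.0499). The call of 1435685_PM_x_at was lost on leaving out any one of the 6 arrays, with a mean-variance trend and with quantile normalization. The third brightest, 1435683_PM_a_at, differed by -0.06 (95% interval -0.65 to 0.54), and the 3 dimmest were not called. The annotation gives 1435684_PM_at, 1435685_PM_x_at and 1435683_PM_a_at the same target accession and the other four a different one each. Which part of the transcript each one reads was not examined.

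In mmm the leading probe set of Abcc5 read 7.23 and 7.62 in untreated tumors and 6.89, 7.77, 8.33 and 8.08 in Group3 neurospheres. The groups overlapped, and the difference was -0.34 (95% interval -0.89 to 0.20, limma adjusted p = 0.412), or -0.24 without neurosphere replicate 4. It was called at -0.63 without neurosphere replicate 1, the low array (adjusted p = 0.0217). None of the 7 was called in mmm with all arrays and no weights, 1435684_PM_at and 1435685_PM_x_at being called with array weights (-0.55 each, adjusted p = 0.0342 and 0.0274). The codes differed for 1438056_PM_x_at by 1.0 (SE 0.24, limma adjusted p = 0.0214), which was lost without either mmm tumor (adjusted p = 0.110 and 0.0716) and was 0.92 without neurosphere replicate 4 (adjusted p = 0.0409). For the leading probe set the codes differed by 0.78 (SE 0.36, adjusted p = 0.202), or 0.88 without mmm neurosphere replicate 4.

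**Figure D4:**
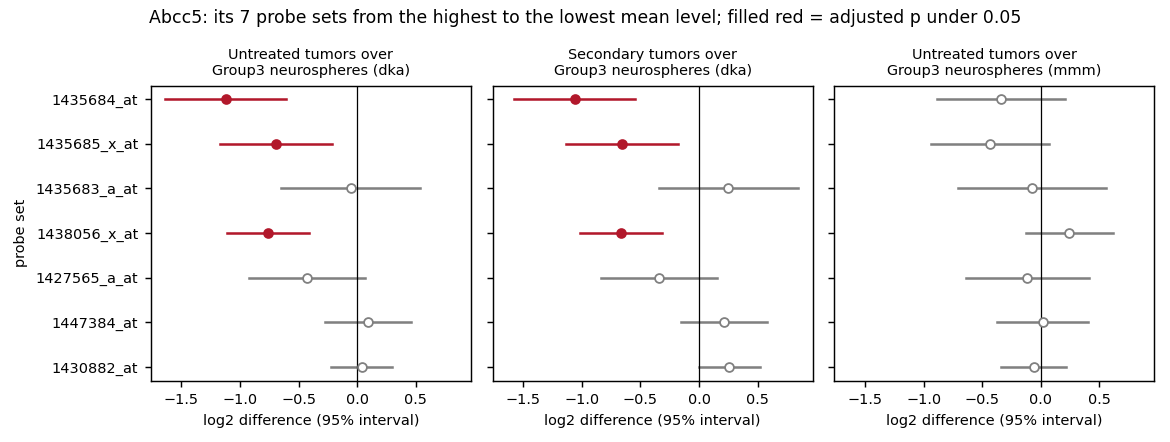
Log2 difference (horizontal axis) with its 95% interval for the 7 probe sets of Abcc5, from brightest at the top to dimmest (vertical axis), in 3 tumor comparisons. Filled red points passed an adjusted p of 0.05: 3 probe sets fell in each dka comparison and 0 were called in mmm.

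Abcc10 read 4.47, 5.94 and 4.63 in dka untreated tumors, against 5.35, 6.72 and 5.78 in Group3 neurospheres (difference -0.93, SE 0.36, limma adjusted p = 0.0929). It was called without tumor replicate 2 (-1.40, adjusted p = 0.00991) and without neurosphere replicate 1 (-1.23, adjusted p = 0.0412). In mmm it read 4.77 and 5.14 in untreated tumors, against 6.37, 5.79, 5.68 and 5.23 in Group3 neurospheres (-0.81, SE 0.38, adjusted p = 0.155), a difference of -0.99 without neurosphere replicate 4 (adjusted p = 0.102). Abcg2 averaged 8.50 ± 0.27 in dka untreated tumors and 8.53 ± 0.12 in Group3 neurospheres (n = 3 each), a difference of -0.02 (interval -0.69 to 0.65). In mmm its tumors read 7.89 and 7.94, against 7.73, 8.90, 9.05 and 8.94 in neurospheres, a difference of -0.74 (SE 0.34) not called (adjusted p = 0.146) except with array weights (-0.93, adjusted p = 0.00604). Neurosphere replicate 1 was the low array there, and without it Abcg2 was called at -1.05 (adjusted p = 0.0163). Without neurosphere replicate 4 the Abcg2 difference was -0.64. The leading probe set of Abcc1, a glutathione conjugate pump, differed by 0.25 (interval -0.47 to 0.97) in dka and -0.35 (interval -1.12 to 0.42) in mmm, or -0.29 without neurosphere replicate 4.

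Untreated dka tumors were also compared with Trp53 Cdkn2c neurospheres. These share the tumor arrays with the comparison above. Abcb1b rose by its 2 probe sets and Abcc4 by its 1, and 2 of Abcc5 fell, which is 5 of 18 (27.8%), or 2 to 5 on leaving out any one array. Over all probe sets 14.6% were called, 6.52% higher and 8.06% lower. Arrays did not overlap for 6 of the 18, against 33.6% of all. Abcc4 rose by 2.94 (SE 0.29, limma adjusted p = 1.593e-06), and Abcb1b by 2.73 (SE 0.44, adjusted p = 0.000268), each called whichever of the 6 arrays was left out. Abcb1a differed by 0.22 (SE 0.30, adjusted p = 0.704). Endothelial markers averaged 5.33 to 6.61 in these tumors and 4.92 to 5.39 in Trp53 Cdkn2c neurospheres, with 7 of 17 called higher. Microglia and macrophage markers averaged 5.94 to 6.42 and 5.78 to 6.21, with 0 of 15 called. The 2 measured red blood cell markers averaged 5.64 to 6.49 and 6.28 to 7.12, with 1 called lower. The part of these cells was not tested. Leading Abcc5 fell by 0.78 (SE 0.25, adjusted p = 0.0389), a call lost without 5 of the 6 arrays. The second Abcb1b probe set rose by 0.52 (SE 0.15, adjusted p = 0.0261). It averaged 3.90 in tumors and 3.38 in these neurospheres, and lay below the array median on each of these arrays. Its call was lost when only dka arrays were fitted (adjusted p = 0.0929). Leaving out Trp53 Cdkn2c replicate 2, tumor replicate 1 or tumor replicate 2 also ended the call (limma adjusted p = 0.149, 0.120 and 0.122).

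Secondary tumors were compared with untreated tumors and with Group3 neurospheres, all dka. Against untreated tumors, limma called 0 of 18 probe sets, against 2.28% of all probe sets. At an unadjusted p under 0.05 there was 1 of 18, against 13.9% of all. That one was 1421378_PM_s_at of Abcc1, which read 7.60, 6.34 and 6.12 in secondary tumors, against 5.0, 5.78 and 6.02 in untreated tumors. The difference was 1.09 (SE 0.39, unadjusted p = 0.0108, limma adjusted p = 0.181), and secondary replicate 1 was the high array. On replicate 1 choroid plexus markers averaged 5.84, against 3.59 and 4.30 on replicates 2 and 3. Neuron markers averaged 5.85 on replicate 1, against 6.91 and 6.96. The part of these cells in the Abcc1 values was not tested. The brighter Abcc1 probe set read 9.78, 8.73 and 8.66 in secondary tumors and 8.54, 8.83 and 9.18 in untreated tumors, which overlapped, with a difference of 0.21 (interval -0.52 to 0.93). Arrays did not overlap for 1 of 18, against 19.2% of all.

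Against Group3 neurospheres 3 of 18 rose and 5 fell (44.4%). Over all probe sets 21.9% were called, 11.1% higher and 10.7% lower. Arrays did not overlap for 11 of 18, against 37.3%. The neurospheres are those of the dka tumor comparison. Abcc4 read 7.44, 6.93 and 7.16 in secondary tumors and changed by -1.66 (SE 0.29, limma adjusted p = 0.000406). Abcc10 read 3.93, 4.65 and 4.34 and changed by -1.65 (SE 0.36, adjusted p = 0.00227). Leading Abcc5 read 6.65, 6.65 and 6.51 and changed by -1.06 (SE 0.25, adjusted p = 0.00383). These 3 calls held without each of the 6 arrays, and in each gene the secondary tumors lay below all 3 neurospheres. The call of the Abcc5 probe set 1435685_PM_x_at was lost with a mean-variance trend and with quantile normalization. It was also lost without any one of the 3 neurospheres and without secondary replicate 2 or 3 (limma adjusted p up to 0.187).

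Abcb1b read 7.42, 8.84 and 8.39 in secondary tumors and rose by 1.44 (SE 0.44, limma adjusted p = 0.0224). Leaving out secondary replicate 2 or 3 or neurosphere replicate 2 ended the call (adjusted p up to 0.130). Abcc3 read 4.09, 4.56 and 4.10 and rose by 0.80 (SE 0.16, adjusted p = 0.00129), called without each array. The Abcc1 probe set 1421378_PM_s_at rose by 1.37 (SE 0.39, adjusted p = 0.0140), or 0.91 without secondary replicate 1 (adjusted p = 0.103) and 1.29 without neurosphere replicate 3 (adjusted p = 0.0503). Abcb1a differed by 0.69 (SE 0.30, adjusted p = 0.109) and Abcg2 by -0.43 (interval -1.10 to 0.24). Endothelial markers averaged 5.63 to 5.71 in secondary tumors, with 13 of 17 higher than in Group3 neurospheres, and oligodendrocyte markers 4.41 to 4.71. Microglia and macrophage markers averaged 6.01 to 7.35, with 12 of 15 higher than in Group3 neurospheres, and their part in these differences was not tested.

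The 3 drug comparisons share the same 2 untreated mmm tumors, so their values are given side by side. Limma called 0 of 18 member probe sets with the combination, gemcitabine or pemetrexed. Over all probe sets 0.0688%, 0.00888% and 0.00444% were called. At an unadjusted p under 0.05 there were 2, 2 and 3 of 18, against 7.41%, 8.35% and 4.38% of all probe sets. Arrays of the groups did not overlap for 4, 4 and 8 of the 18, against 37.1%, 29.1% and 47.6% of all probe sets. Half-widths of the 95% intervals ran from 0.29 to 1.03 log2 units for the combination and gemcitabine and from 0.32 to 1.12 for pemetrexed, so changes inside such a range could not be told from no change. The intervals are not adjusted for the number of probe sets, and larger changes also went uncalled, as for Abcb1a below.

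Abcb1a had the lowest unadjusted p of the members with each treatment. It read 4.06, 4.59 and 3.94 with the combination, 4.47, 4.12 and 5.16 with gemcitabine and 4.17 and 4.69 with pemetrexed, against 5.20 and 5.46 in untreated tumors. Each treated array lay below both untreated tumors. In that order the differences were -1.13 (SE 0.33, limma adjusted p = 0.360), -0.75 (SE 0.33, adjusted p = 0.561) and -0.90 (SE 0.36, adjusted p = 1). For the second probe set they were -1.34 (SE 0.34, adjusted p = 0.257), -1.14 (SE 0.34, adjusted p = 0.404) and -1.43 (SE 0.37, adjusted p = 0.702).

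With array weights, which give less weight to arrays far from their group, Abcb1a was called with the combination (-1.11, limma adjusted p = 0.0154, and -1.34, 0.00681 for the second probe set). It was also called with gemcitabine (-0.89, adjusted p = 0.0137, and -1.25, 0.00296) and, by the second probe set, with pemetrexed (-1.43, 0.0249). The share of all probe sets called with array weights was not counted, so these calls have no background beside them. Neuron markers averaged 7.57 to 9.27, 6.67 to 10.3 and 8.01 to 9.05 in tumors given the combination, gemcitabine and pemetrexed, against 9.93 to 10.2 in untreated tumors. Oligodendrocyte markers averaged 5.30 to 7.87, 5.31 to 8.63 and 6.41 to 7.06, against 7.30 to 8.97. Endothelial markers averaged 5.50 to 5.74, 5.51 to 6.11 and 5.59 to 5.71, against 5.87 to 6.11. Limma called 0 of these markers in the 3 comparisons. At an unadjusted p under 0.05 there were 3, 2 and 3 of 17 endothelial, 1, 2 and 1 of 7 neuron and 1, 0 and 0 of 6 oligodendrocyte markers, against 7.41%, 8.35% and 4.38% of all probe sets, and their part in the Abcb1a values was not tested.

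The other member with an unadjusted p under 0.05 was Abcc5 with pemetrexed, by 1438056_PM_x_at, which read 5.43 and 5.14 against 6.02 and 5.89 in untreated tumors (-0.68, SE 0.21, unadjusted p = 0.00368, limma adjusted p = 0.944).

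The leading probe sets of the other members gave no call with any drug in the fit without array weights. Abcc4 read 7.27, 7.03 and 6.26 with the combination, 7.28, 7.29 and 7.09 with gemcitabine and 7.42 and 7.37 with pemetrexed, against 7.12 and 7.15 in untreated tumors. The differences were -0.29 (95% interval -0.98 to 0.40), 0.08 (-0.61 to 0.77) and 0.26 (-0.50 to 1.01). Leading Abcc5 differed by -0.09 (-0.67 to 0.48), -0.03 (-0.61 to 0.54) and -0.22 (-0.85 to 0.41). Abcg2 differed by 0.33 (-0.42 to 1.08), 0.52 (-0.22 to 1.27) and 0.25 (-0.57 to 1.07), and was called with array weights for gemcitabine (0.64, limma adjusted p = 0.0451). Abcb1b differed by 0.23, 0.42 and 0.60, with intervals reaching 1.26, 1.45 and 1.73. Leading Abcc1 averaged 8.21, 8.10 and 8.53 with the combination, gemcitabine and pemetrexed, against 8.32 in untreated tumors. In the same order Abcc2 averaged 3.31, 3.20 and 3.21, against 3.20. Abcc3 averaged 4.12, 4.18 and 4.52, against 4.41, and Abcc10 5.35, 5.17 and 5.18, against 4.96.

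**Figure D5:**
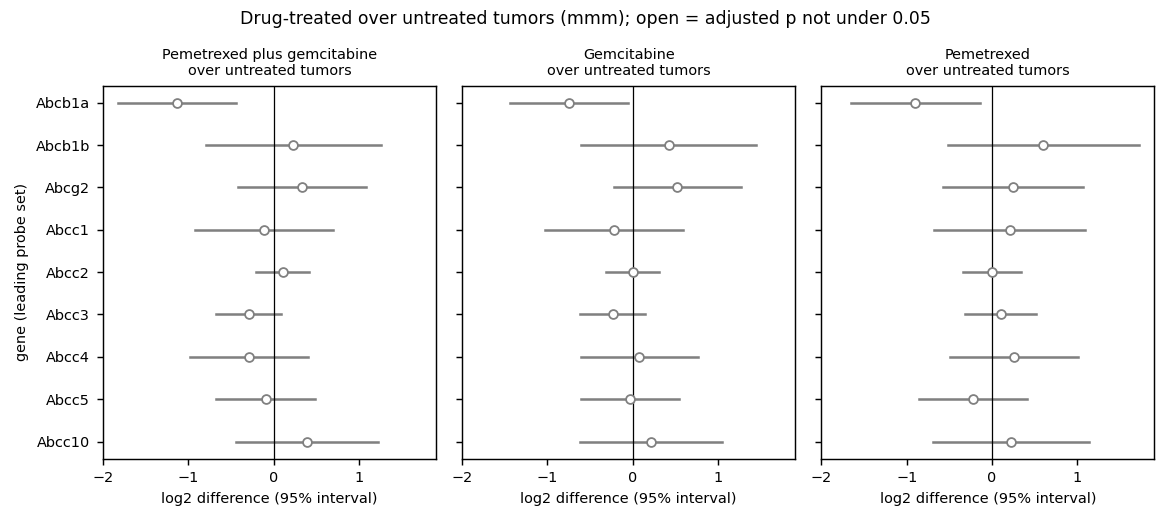
Log2 difference (horizontal axis) with its 95% interval for the leading probe set of each gene (vertical axis) in tumors given pemetrexed plus gemcitabine, gemcitabine or pemetrexed over the same 2 untreated mmm tumors. All points are open since no adjusted p was under 0.05; Abcb1a lies at -1.13, -0.75 and -0.90.

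The combination was set against each drug alone, using arrays also used above. Limma called 0 of 18 probe sets against gemcitabine and 0 against pemetrexed, where 0% and 0.00666% of all probe sets were called. At an unadjusted p under 0.05 there were 0 of 18 against gemcitabine and 2 of 18 against pemetrexed, where 5.48% and 2.62% of all probe sets passed. Arrays did not overlap for 0 and 5 of the 18, against 11.3% and 19.8% of all probe sets. Abcc4 differed by -0.37 (interval -0.98 to 0.25) against gemcitabine and -0.55 (-1.23 to 0.14) against pemetrexed. Abcb1a differed by -0.39 (-1.0 to 0.23) and -0.24 (-0.93 to 0.46).

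Genes with the pattern most like each called member were listed among genes whose brightest probe set was above the median of mean levels. Likeness was taken over the 9 means of group and code, each mean taken relative to the Group3 neurospheres of its code, so that 2 of the 9 values are 0 by construction. The means share arrays and normalization, and the correlations are descriptive. Abcb1a was most like Slc1a1, a neuronal glutamate transporter gene (Pearson r = 0.98), Rab3c, a synaptic vesicle GTPase gene (0.97), and Usp33 (0.96). Abcc3 was most like Ada (0.99), Psmc5 (0.97) and Col8a1 (0.96), and Abcc4 most like Sdha (0.98), Ap3b1 (0.98) and Rfesd (0.97). Abcb1b was most like Pabpc4, Cep192 and Bri3bp (0.98 each). Leading Abcc5 was most like Mdp1 (0.99), Pcmtd1 (0.99) and Pls3 (0.98), and Abcc10 most like Vcan, Plcb3 and Ikbip (0.98 each).

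Related transporters were counted by list, with 1 leading probe set a gene. Over all probe sets 20.1% were called between neurosphere genotypes, and 13.8% in dka and 17.5% in mmm untreated tumors over neurospheres. Of 9 other ABCB and ABCC genes measured, 2 rose and 1 fell in Group3 over Trp53 Cdkn2c neurospheres. Abcb6, a mitochondrial porphyrin transporter gene, averaged 8.25 in Group3 and 5.0 in Trp53 Cdkn2c neurospheres (difference 3.25, SE 0.31, limma adjusted p = 3.603e-07). Abcc12 rose by 1.53, and Abcc8, the sulfonylurea receptor, fell by 1.68. In untreated tumors 1 rose and 1 fell in dka (Abcc8 by 1.21, Abcc12 by -1.08), and 1 fell in mmm (Abcb8 by -0.99). Of 17 ABCA, ABCD and other ABCG genes, Abcg1, a cholesterol exporter of macrophages and neurons, rose by 2.13 in dka and 3.55 in mmm tumors. Abcd3 and Abcd4, of peroxisomes and lysosomes, fell in both. In all, 1 of these 17 rose and 2 fell in dka and 2 rose and 3 fell in mmm. Median differences in dka and mmm were -0.10 and -0.08 for the 9 genes and -0.17 and -0.08 for the 17, against 0.01 and -0.06 over all probe sets.

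Solute carriers of the blood-brain barrier numbered 13, of which 4 rose and 0 fell in dka tumors and 4 rose and 3 fell in mmm tumors. Over all probe sets 13.8% and 17.5% were called. Median differences of the 13 were 0.61 and 0.43. Of the 13, Slco1c1, Slco1a4 and Mfsd2a are also in the endothelial list. Slco1c1, Slco1a4, an organic anion carrier, and Slc6a6, the taurine transporter, were among those higher under both codes. Slco1a4 averaged 5.39 in mmm tumors and 3.90 in neurospheres, and 5.12 in dka tumors and 3.85 in neurospheres. Slc7a5 and Slc3a2, which form an amino acid exchanger, fell by 1.33 and 1.12 in mmm. Of 9 xenobiotic and oxidative stress sensors, Ppara rose by 1.17 in Group3 over Trp53 Cdkn2c neurospheres and fell by 0.77 in dka and 1.04 in mmm untreated tumors over neurospheres, and no other was called in these comparisons.

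A list of 17 measured genes held glutathione synthesis and conjugation genes, whose products include conjugates that several Abcc pumps carry, and also the oxidative stress genes Nqo1, Hmox1 and Txnrd1. Of the 17, 7 rose and 1 fell in Group3 over Trp53 Cdkn2c neurospheres, where 20.1% of all probe sets were called. The median difference was 0.76, against 0.04 over all probe sets. Mgst1 rose by 3.51 (SE 0.79, limma adjusted p = 0.00321), Nqo1, a quinone reductase, by 3.28, Gstm1 by 3.07 and Hmox1, a heme oxygenase, by 2.06. In untreated tumors over neurospheres 3 rose and 5 fell in dka, with Gstt1 at -3.67, Nqo1 at -3.05, Mgst1 at -2.67 and Gstm1 at -2.53. In mmm 1 rose, Mgst3 by 2.04, and 2 fell, Mgst1 by 2.94 and Nqo1 by 2.73. Over all probe sets 13.8% were called in dka and 17.5% in mmm tumors over neurospheres. Limma called 0 of the genes in these 5 lists with any of the 3 drug treatments over untreated tumors. At an unadjusted p under 0.05 there were 8 of 65 with the combination, 6 with gemcitabine and 3 with pemetrexed, against 7.41%, 8.35% and 4.38% of all probe sets.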

How the data were processed

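The authors deposited log2 intensities for 26 mouse Affymetrix HT MG-430 PM arrays. The submitters' processing notes name RMA, with no version, and Partek 6.6. Per the labels' protocols, RNA was extracted with Trizol, amplified with NuGEN Ovation Pico WTA V2 and labelled with the Encore Biotin Module. These deposited log2 intensities were not normalized again. Of 45141 probe sets, 104 controls were left out. Gene names came from the platform annotation, which gave 28898 probe sets 1 symbol and 551 several. Probe sequences were not examined, so reading across between similar genes such as Abcb1a and Abcb1b was not checked.

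The fit (limma 3.58.1, R 4.3.3) took all 26 arrays and estimated 9 group means within codes, from which 12 comparisons were drawn. P-values were moderated and adjusted by Benjamini-Hochberg over the 45037 probe sets, and a probe set was called at an adjusted p under 0.05. SE is the moderated standard error. The design was tried on simulated arrays with known changes. Members, gene lists and the naming rule were chosen with earlier results of these data known. The rule named every member probe set, up to 4 called genes of a related list in a comparison, and the 3 genes most like each called member. Replicate numbers follow deposit order. With 2 to 4 arrays a group, their number limits the precision. Alternatives were only the arrays of the code, quantile normalization, a filter on dim probe sets, a mean-variance trend, array weights, 1 row a gene (brightest probe set or mean) and leaving out each array. Python 3.11.15 with matplotlib 3.10.9 drew the figures.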

Additional observations from a re-analysis of the deposited data

Results flagged for a closer look

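In mmm Group3 neurospheres, the only group of 4 arrays, Abcg2 was low on replicate 1, at 7.73, with the next array at 8.90. That gap was 0.892 of the group's range, above Dixon's 95% critical value for 4 arrays. The leading Abcc1 probe set was low on replicate 3, at 8.14, with the next array at 8.84 (a gap of 0.972 of the range). Such a gap arises by chance in about 1 of 20 groups, and 18 probe sets were examined.

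Abcb1b differed between codes in its tumor over neurosphere difference by -2.58 (mmm minus dka, limma adjusted p = 0.0231), and the Abcc5 probe set 1438056_PM_x_at by 1.0 (limma adjusted p = 0.0214). The neurosphere means of Abcb1b were 6.87 in mmm and 6.77 in dka, and its untreated tumor means 5.39 in mmm and 7.87 in dka. The Abcc5 probe set averaged 5.72 in mmm and 5.85 in dka neurospheres, and 5.96 in mmm and 5.09 in dka untreated tumors. Group3 neurosphere means of the codes were close over all probe sets, so their closeness here does not place the difference in the tumors.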

How the results depend on the processing

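Of 29 called member differences, 21 kept their call under every alternative other than leaving out an array, and 13 kept it under every left-out array too. Of 187 differences not called, 167 stayed so. No difference that was called in the main fit or under an alternative reversed between them. Changes of sign among differences called in neither are not covered by that statement. With array weights, 1 gene and 2 probe sets were called for the combination, 2 genes and 3 probe sets for gemcitabine and 1 probe set for pemetrexed, where none was called otherwise, and 8 rather than 5 probe sets were called in mmm tumors over neurospheres. How many of all probe sets are called with array weights was not counted, so these counts cannot be set against a background share. Without dim probe sets, which leaves out Abcb1a and Abcc3, 2 genes and 2 probe sets were called there. Fitting dka arrays alone called 2 rather than 4 probe sets between neurosphere genotypes, and a mean-variance trend or quantile normalization called 3 rather than 5 in untreated tumors over Trp53 Cdkn2c neurospheres. The cause was not tested. Leaving out 1 array gave 1 to 3 probe sets and 1 to 3 genes between neurosphere genotypes, 2 to 7 and 1 to 5 in dka tumors over neurospheres, 3 to 6 and 2 to 5 in mmm, 2 to 5 and 2 to 3 over Trp53 Cdkn2c neurospheres, 6 to 7 and 4 to 5 in secondary tumors over neurospheres, and 0 to 5 and 0 to 2 for the difference between codes. It gave 0 in each drug comparison and for secondary over untreated tumors. The fit of 1 code's arrays gives no value for the difference between codes. Where an array left out leaves 1 untreated mmm tumor or 1 pemetrexed tumor, that array is taken to vary like the other groups. No paired analysis was possible because the labels give no replicate numbers.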
